A study of Mus musculus with 55 samples.

Results

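Glul, Slc1a2, Slc1a4, Rhbg, Oat, Lhpp, Lect2, Tbx3 and Rgn are genes of hepatocyte glutamine handling and liver zonation, and were followed by symbol through every liver of a mouse study of Rnf43 and Znrf3 deletion. All 9 symbols were found, out of 34490 symbols counted in both batches of libraries. The genes were chosen by their counts in mutant livers against control livers, which were already known. The values of mutants against controls are therefore a description: where the fit across all genes called some of the 9 between the genotypes, their count stands beside the share of all genes, follows from the choice and is no evidence, without damage, after it and after hepatectomy alike. Comparisons between times, between sexes and before and after damage were also fitted, with adjusted p-values. Since the genes were chosen with earlier results of these data known, these tests are limited too. Their adjusted p-values for the 9 genes are read as a description and not as independent evidence. Changes of the gap between the genotypes are made of the mutant and control values themselves and are read as a description.

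Liver lobules are zoned along the path of the blood, from the portal tract to the central vein. WNT ligands made by the endothelium of the central vein act through β-catenin and the TCF/LEF factors on the hepatocytes closest to it. Rnf43 and Znrf3 encode E3 ubiquitin ligases that clear Frizzled WNT receptors from the cell surface, and so restrain the pathway. Hepatocytes around the portal tract break glutamine down with the glutaminase Gls2 and feed its ammonia into the urea cycle, while the last hepatocytes before the central vein bind the ammonia that is left to glutamate with glutamine synthetase, the product of Glul. Counts from whole liver carry no position in the lobule, so the zone of each gene is background and was not tested. In whole tissue, fewer cells of a type and less RNA per cell cannot be told apart.

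The mutants (R&Zdel) were adult C57BL/6 mice with both genes floxed, in which the RING-domain exons were deleted either by the virus AAV8-TBG-Cre, whose TBG promoter is active in hepatocytes, or by tamoxifen with the albumin-driven AlbCre-ERT2. Controls (R&Zflox) carried the same floxed alleles and received AAV8-null virus or vehicle. Undamaged livers were collected at 1, 3 and 7 months after deletion (1M, 3M and 7M), from 4, 2 and 5 R&Zdel livers and from 4, 5 and 5 R&Zflox livers in that order. Chronic damage (CD) was repeated carbon tetrachloride (CCl4), a toxin that cytochrome P450 enzymes of pericentral hepatocytes activate, followed by 4, 50 or 170 days without it, with 2 R&Zdel livers per time and 2, 1 and 2 R&Zflox livers. Both R&Zflox livers at 170 days bear that time in their titles, while the study's list gives them at 50 days. By that list no assigned control would be left at 170 days. Every R&Zflox value at 170 days, and every difference drawn from it, therefore rests on the titles. The methods give corn oil alone for unrecombined littermates, while the study's results describe one regimen for both genotypes, so whether the CD controls received CCl4 is not settled by the sources. Partial hepatectomy (PHx), removal of part of the liver, was followed by 7 or 21 days, with 3 livers per genotype and time. Each genotype had both sexes at 1M. R&Zdel PHx 21d replicate 3 was female, while all other PHx livers and all CD livers were male. At 7M only R&Zflox replicate 5 was female. Levels given below for single livers are not adjusted for sex.

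All 1M and PHx livers came from the virus arm, all 7M and CD livers from the tamoxifen arm, and the 3M livers from both. The 2 R&Zdel livers at 3M differed in each of these: replicate 1 was a male given virus in the second batch and replicate 4 a female given tamoxifen in the first batch, while all 5 R&Zflox livers were male. All CD livers were in the first batch and all 1M and PHx livers in the second. The 3M and 7M differences are therefore also given by batch, and the effects of batch, sex and induction cannot be told apart within the 3M mutants.

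Promoter windows are shown because the deleted genes act on WNT signalling, whose TCF/LEF factors bind the core CTTTGA, which reads TCAAAG on the other strand. RefSeq windows of build GRCm38.p6, from 250 bases before to 50 bases after a start, were matched for 5 of the 9 genes: Glul, Slc1a2, Slc1a4, Oat and Lect2. Rhbg, Lhpp, Tbx3 and Rgn had no window in the table. Both strands were searched, for this core alone. The core was in the windows of 2 of the 5 genes, and in 5257 of all 32851 windows, or 16%. The windows of Glul, without a match, and of Slc1a2 and Lect2, with matches in capitals, are printed 5′ to 3′ on the strand of each gene. Glul lies at chr1:153899679-153899978 on the plus strand, Slc1a2 at chr2:102706188-102706487 on the plus strand and Lect2 at chr13:56548489-56548788 on the minus strand.
Glul: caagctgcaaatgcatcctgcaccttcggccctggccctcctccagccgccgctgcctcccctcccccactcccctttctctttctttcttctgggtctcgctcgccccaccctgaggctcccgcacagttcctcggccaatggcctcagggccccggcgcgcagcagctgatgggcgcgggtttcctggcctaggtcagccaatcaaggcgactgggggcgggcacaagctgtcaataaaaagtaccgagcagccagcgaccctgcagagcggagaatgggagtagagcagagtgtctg
Slc1a2: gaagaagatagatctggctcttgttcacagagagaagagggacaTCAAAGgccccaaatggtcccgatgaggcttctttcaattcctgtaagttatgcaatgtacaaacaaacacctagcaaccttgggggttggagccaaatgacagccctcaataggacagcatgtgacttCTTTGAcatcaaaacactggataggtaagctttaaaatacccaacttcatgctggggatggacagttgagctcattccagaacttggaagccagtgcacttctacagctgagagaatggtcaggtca
Lect2: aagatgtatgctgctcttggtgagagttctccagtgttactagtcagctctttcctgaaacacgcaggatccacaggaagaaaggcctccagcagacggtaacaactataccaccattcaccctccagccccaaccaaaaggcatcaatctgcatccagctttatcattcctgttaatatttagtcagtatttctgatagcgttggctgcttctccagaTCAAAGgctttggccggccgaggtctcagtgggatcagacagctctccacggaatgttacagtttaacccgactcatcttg
In the Slc1a2 window the core begins 206 bases before the start on the opposite strand and 77 bases before it on the gene's own strand. This window belongs to a start inside the Slc1a2 gene as counted here. In the Lect2 window the only core lies 31 bases before the start, on the opposite strand. A match is a run of letters and not a binding site, and its absence from the windows of Glul, Slc1a4 and Oat says nothing of binding elsewhere.

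The 9 genes sit on 8 chromosomes of mm10 in the annotation of the counts. Oat, chr7:132557475-132576398 on the minus strand, and Lhpp, chr7:132610615-132706420 on the plus strand, are neighbours, with 34216 bases and 2 other genes between them. Glul spans chr1:153899929-153909723, Slc1a2 chr2:102658239-102790784 and Lect2 chr13:56529734-56548559. Counting took no account of strand, so reads of Slc1a2 and the 166 exonic bases it shares with Gm13872, and of Tbx3 and the 258 it shares with Tbx3os1, cannot be told apart. Glul also shares 108 exonic bases with the microRNA gene Mir8114.

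There were 53 libraries, 48 of them assigned to a group and 5 left out because their labels conflict, with 11721687 to 38692089 counts each and a median of 22982428. R&Zdel 3M replicate 4 and R&Zflox 7M replicate 5 were placed by their characteristics against their titles. Without both, 3 and 4 of the 9 genes were called at 1M and 7M, an alternative chosen after seeing the data. At 3M it leaves R&Zdel replicate 1 as the only mutant, so no count is given there. Whole-gene counts of the targeted genes were higher and not lower in R&Zdel, with log2 fold changes of 2.22 for Rnf43 and 1.82 for Znrf3 at 1M, and such counts do not tell which exons were read. None of 6 hepatocyte markers was at 0 in any group, but their summed level was lower in R&Zdel without overlap at 1M (62509 to 81599 against 110021 to 126495 CPM), 3M (66164 to 83430 against 97824 to 123301), PHx 7d (66293 to 87687 against 120312 to 146360) and PHx 21d (64916 to 97864 against 108240 to 125173), and overlapped at 7M (59566 to 105151 against 91023 to 121250). What part this had in the differences between the genotypes was not tested. In what follows, a gene is called when its adjusted p is under 0.1 and its log2 fold change is above 1 in either direction, by edgeR's quasi-likelihood test with Benjamini-Hochberg adjustment over all genes tested. Values after ± on a fold change are standard errors.

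In undamaged livers all 9 genes had a higher fitted level in R&Zdel than in R&Zflox at 1M, 3M and 7M. Of the 9, 3 were called at 1M, beside 0.436% of all 12848 genes tested, 4 at 3M, beside 0.226%, and 5 at 7M, beside 0.451%. Their median log2 fold changes were 1.41, 1.71 and 1.33, beside 0.01, -0.09 and -0.02 over all genes. Every R&Zdel library lay above every R&Zflox library in CPM, a gene's counts scaled to a common total per library, for 8 genes at 1M, for 6 at 3M and for 2 at 7M, beside 4.14%, 7.62% and 0.841% of all genes. After TMM scaling the same was true of 5, 5 and 2 genes, beside 2.34%, 5.97% and 1.01% of all genes. These counts follow from how the genes were chosen, and nothing is read from them. Without R&Zdel 3M replicate 1, none of the 9 was called at 3M. Scaling moved the median log2 difference of all genes from 0.158 to 0.024 at 1M and from -0.115 to -0.055 at 7M, and fold changes below are on the TMM scale.

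**Figure D1:**
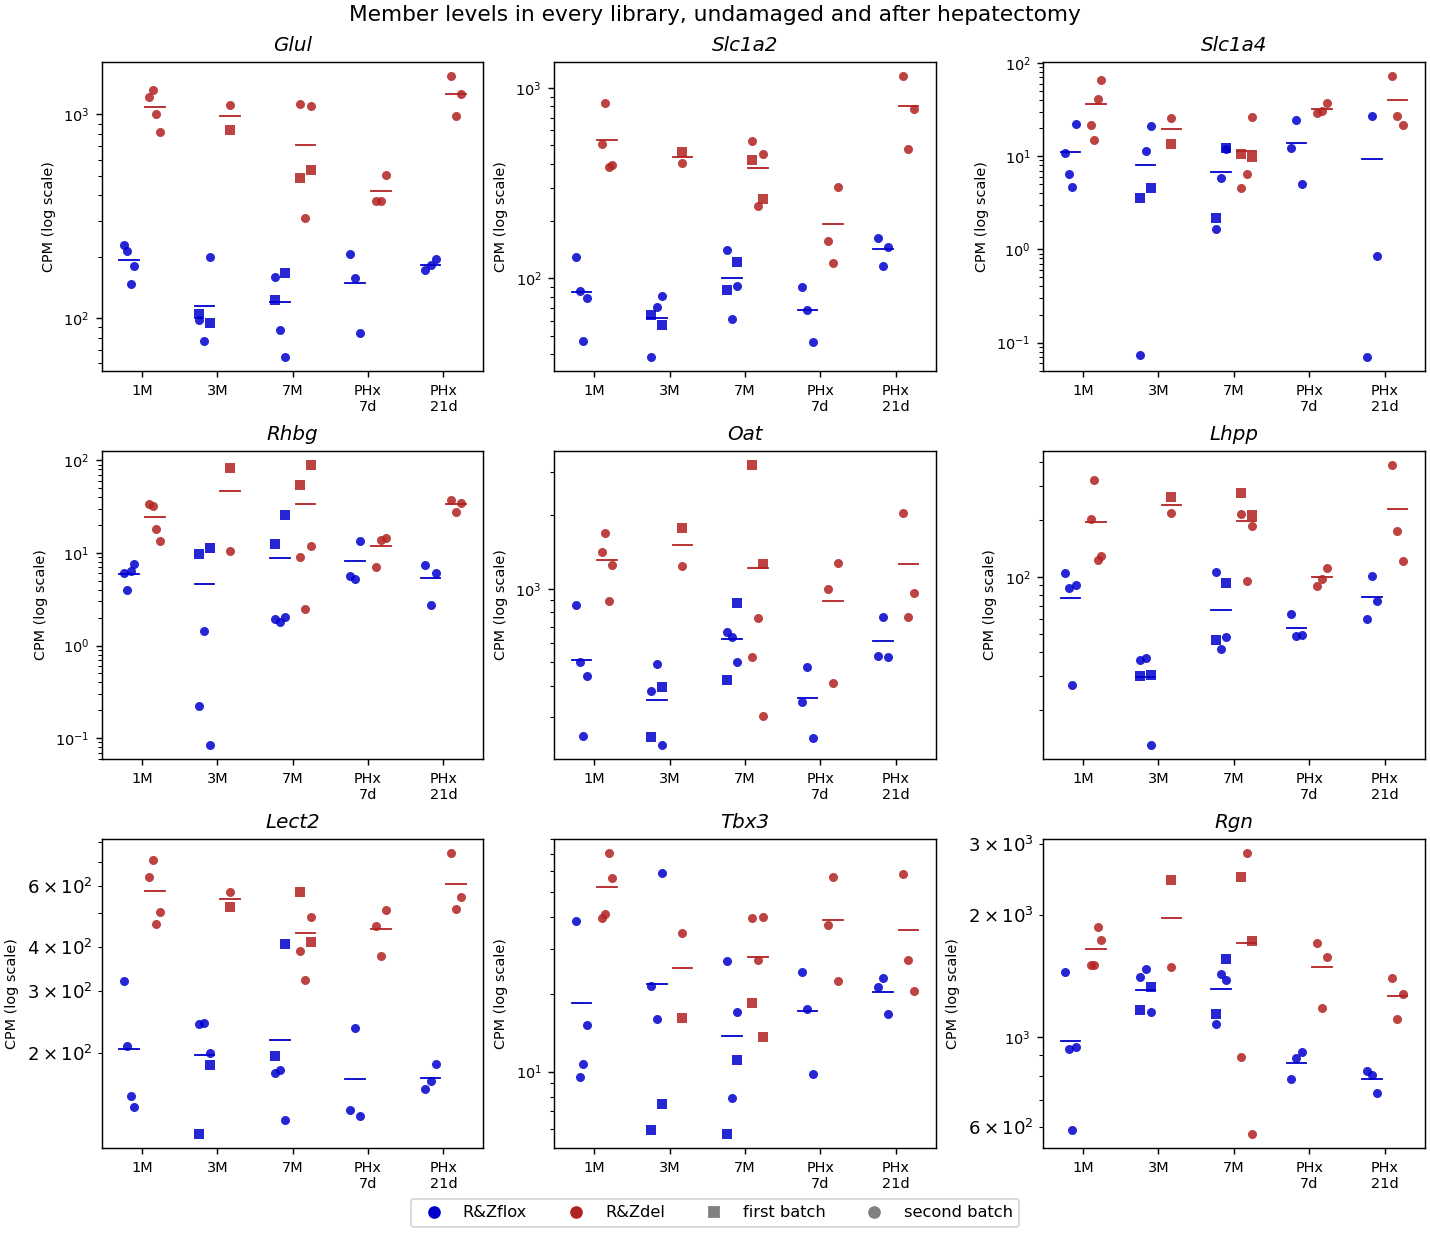
CPM on log axes for each of the 9 genes in every assigned library without damage at 1, 3 and 7 months and at 7 and 21 days after hepatectomy. Points are libraries, blue for R&Zflox and red for R&Zdel, squares for the first batch and circles for the second, and lines are group means. Glul and Slc1a2 of R&Zdel lie above all R&Zflox libraries in all 5 conditions, while Slc1a4, Oat and Tbx3 overlap in several.

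Glul, the enzyme that makes glutamine from glutamate and ammonia, stood several times higher in R&Zdel. At 1M it stood at 1210, 1315, 1003 and 821 CPM in R&Zdel and at 147, 180, 228 and 214 CPM in R&Zflox. At 3M the R&Zdel livers had 1113 and 840 CPM and the R&Zflox livers 105, 94.4, 97.5, 77.2 and 199 CPM. At 7M the R&Zdel livers had 486, 535, 1121, 309 and 1096 CPM and the R&Zflox livers 123, 159, 87.4, 64.4 and 167 CPM. The genotypes did not overlap at any of the 3 times, and at 7M the lowest R&Zdel liver came nearest to the controls. The fitted log2 fold changes were 2.32 ± 0.36, 2.91 ± 0.40 and 2.75 ± 0.34. Within batches, mean CPM was 8.42 times higher in the first and 8.93 times higher in the second at 3M, and 3.53 and 8.14 times higher at 7M.

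Slc1a2 encodes a high-affinity glutamate transporter of the plasma membrane. It stood at 508, 839, 385 and 392 CPM in R&Zdel at 1M, against 46.7, 79.2, 129 and 86.0 CPM in R&Zflox. At 7M it stood at 417, 262, 529, 241 and 449 CPM against 87.0, 141, 61.3, 91.0 and 122 CPM. Again no library of one genotype reached the range of the other at any time. The fold changes were 2.46 ± 0.30 at 1M, 2.47 ± 0.33 at 3M and 2.16 ± 0.27 at 7M on the log2 scale. Mean CPM was 7.59 and 6.36 times higher in the first and second batch at 3M, and 3.25 and 4.15 times higher at 7M.

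The other transporters were counted at far lower levels and overlapped more. Rhbg, an ammonia transporter of the Rhesus family, had 33.8, 32.4, 18.2 and 13.6 CPM in R&Zdel at 1M and 6.31, 7.57, 6.14 and 3.96 CPM in R&Zflox. At 7M it had 54.0 and 89.9 CPM in the first batch and 8.99, 2.47 and 11.8 CPM in the second in R&Zdel, against 12.4 and 25.7 CPM and 1.96, 1.78 and 2.03 CPM in R&Zflox. The batches lay further apart than the genotypes at 7M, but within each batch every R&Zdel liver lay above every R&Zflox liver, with mean CPM 3.77 and 4.03 times higher. At 3M mean CPM of Rhbg was 7.76 times higher in the first batch and 18.1 times higher in the second, where a control had 0.0835 CPM. The fold changes of Rhbg were 1.79 ± 0.58, 3.39 ± 0.66 and 2.17 ± 0.53 on the log2 scale. Slc1a4, a sodium-dependent carrier of alanine, serine and other neutral amino acids, had 21.6, 14.9, 41.3 and 66.1 CPM in R&Zdel at 1M and 4.64, 22.1, 10.8 and 6.40 CPM in R&Zflox. It overlapped at all 3 times with the batches pooled, and 1 R&Zflox liver at 3M had only 0.0737 CPM. Within each batch it did not overlap at 3M, with mean CPM 3.30 times higher in the first and 2.345 times higher in the second, and it overlapped in both at 7M (1.43 and 1.885 times). Its fold changes of 1.52 ± 0.90, 1.46 ± 1.03 and 0.80 ± 0.84 had the widest errors of the 9 genes.

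Oat, ornithine aminotransferase, links ornithine to glutamate in mitochondria. It had 1411, 1695, 892 and 1253 CPM in R&Zdel at 1M and 857, 500, 250 and 440 CPM in R&Zflox. At 7M its R&Zdel livers had 3218 and 1260 CPM in the first batch and 528, 757 and 302 CPM in the second, against 422 and 875 CPM and 668, 637 and 502.5 CPM. The batches thus differed in direction at 7M, with mean CPM 3.46 times higher in R&Zdel in the first and 0.878 times the control in the second. At 3M it was 5.47 times higher in the first batch and 3.38 times higher in the second. Its fitted log2 fold changes were 1.22 ± 0.44, 1.71 ± 0.50 and 0.95 ± 0.42. Lhpp, a phosphatase of phosphohistidine and pyrophosphate and the neighbour of Oat, had 203, 325, 122 and 128 CPM in R&Zdel at 1M and 104, 87.4, 27.01 and 90.3 CPM in R&Zflox. At 3M it had 216 and 264 CPM against 30.03, 30.5, 36.5, 37.5 and 12.9 CPM, and the genotypes lay well apart. Mean CPM of Lhpp was 8.72 and 7.44 times higher in the first and second batch at 3M, and 3.49 and 2.515 times higher at 7M, where the second batch overlapped. The fold changes of Lhpp were 1.11 ± 0.39, 2.60 ± 0.44 and 1.83 ± 0.36 on the log2 scale.

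Lect2 encodes a protein that hepatocytes secrete into the blood. It had 634, 711.3, 466 and 505 CPM in R&Zdel at 1M and 321, 209, 150 and 140 CPM in R&Zflox. At 7M it had 577, 414, 390, 322 and 489 CPM against 195, 176, 179, 128 and 410 CPM, and the last of these, the only female control at 7M, lay within the R&Zdel range. Mean CPM was 3.46 and 2.53 times higher in the first and second batch at 3M, and 1.64 and 2.49 times higher at 7M, without overlap within a batch. The fold changes were 1.37 ± 0.28, 1.14 ± 0.32 and 1.33 ± 0.26 on the log2 scale.

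Tbx3, a T-box transcription factor, had 39.4, 41.0, 70.7 and 56.6 CPM in R&Zdel at 1M and 38.6, 9.49, 10.7 and 15.1 CPM in R&Zflox. At 3M its R&Zdel livers, at 34.5 and 16.1 CPM, lay inside the R&Zflox range of 5.91 to 58.9 CPM with the batches pooled. In the first batch the R&Zdel liver, at 16.1 CPM, lay above both controls, at 5.91 and 7.50 CPM, and was 2.40 times their mean, while in the second the genotypes overlapped (1.07 times). At 7M mean CPM was 1.92 and 2.06 times higher in the first and second batch, with no overlap within either. Its fold changes were 1.41 ± 0.48, 0.39 ± 0.56 and 1.21 ± 0.43 on the log2 scale. Rgn encodes regucalcin, a calcium-binding lactonase of vitamin C synthesis, and was the most abundant of the 9 per length of exon. It had 1505, 1503, 1870 and 1738 CPM in R&Zdel at 1M and 1445, 933, 588 and 945 CPM in R&Zflox. At 7M the R&Zdel livers spread from 576 to 2850 CPM around R&Zflox livers of 1079 to 1559 CPM. Mean CPM of Rgn was 1.96 and 1.11 times higher in the first and second batch at 3M, and 1.56 and 1.11 times higher at 7M, where the second batch overlapped. Its fold changes of 0.61 ± 0.32, 0.37 ± 0.39 and 0.43 ± 0.29 were the smallest of the 9 at each time.

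Whether the genotype difference itself changed between 1M, 3M and 7M was tested in the same model. Not 1 of the 12848 genes was called for 3M against 1M, 7M against 1M or 7M against 3M, with 655, 751 and 537 genes at an unadjusted p under 0.05. DESeq2 called 76, 102 and 32 genes, of which 49, 58 and 26 had a fitted log2 change beyond 10 in size. The gap of Lhpp was 1.49 ± 0.60 wider at 3M than at 1M on the log2 scale (edgeR adjusted p = 0.951) and that of Rhbg 1.602 ± 0.86 wider. The other 7 genes differed by -1.01 to 0.59 at 3M against 1M, and all 9 by -0.72 to 0.71 at 7M against 1M and by -1.23 to 0.82 at 7M against 3M. These comparisons share the livers of each time, and the 3M value rests on 2 mutants.

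Between the sexes, 118 genes were called in undamaged livers, or 0.918%, and none of the 9 genes was among them. Female livers stood 0.65 ± 0.22 higher in Lect2 (adjusted p = 0.325), 0.66 ± 0.32 higher in Lhpp (adjusted p = 0.734) and 0.59 ± 0.23 higher in Slc1a2 (adjusted p = 0.512) on the log2 scale, by edgeR's quasi-likelihood test. The 95% interval of the Lect2 difference ran from 0.213 to 1.08. The other 6 genes differed by -0.27 to 0.43.

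After CCl4, levels are given as TMM-scaled CPM. R&Zdel libraries at CD 4d were scaled by 0.668 to 0.765 and R&Zflox libraries by 1.04 to 1.09, and this scaling moved the median log2 difference of all genes between the genotypes from 0.489 to -0.023. In plain CPM every R&Zdel library lay above every R&Zflox library for 66.7% of genes at CD 4d, 48.8% at CD 50d and 40.6% at CD 170d, against 32%, 32.5% and 20.4% after scaling. Over the same libraries 5 of 5 cholangiocyte markers (Krt19, Krt7, Epcam, Sox9 and Spp1) were called higher in R&Zdel at CD 4d, and their summed level was 3490 to 6224 CPM in R&Zdel and 86.4 to 156 CPM in R&Zflox. The summed level of 6 hepatocyte markers was 72284 to 89027 CPM in R&Zdel and 93127 to 95377 CPM in R&Zflox at that time, with none at 0. What part the cell makeup had in the values at CD 4d was not tested.

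In R&Zflox livers, 4 of the 9 genes were called between undamaged 3M livers of the first batch and CD 4d, where 2.55% of 11182 genes were called. The 9 genes were chosen with earlier results of these data known, so these calls are a description. By the study's timeline CD 4d came sooner after induction than 3M, and tamoxifen was re-administered in the CD model. Time after induction and dosing cannot be told apart from damage in this comparison. Slc1a2 stood at 70.2 and 70.5 scaled CPM without damage and at 3.98 and 4.07 at CD 4d, and it fell by 4.10 ± 0.37 on the log2 scale (edgeR adjusted p = 0.000318). Oat went from 271 and 491 scaled CPM to 18.5 and 20.2, and fell by 4.27 ± 0.47 (adjusted p = 0.000854). Lhpp went from 32.8 and 37.6 scaled CPM to 5.50 and 5.62, and fell by 2.64 ± 0.39 (adjusted p = 0.00492). The fourth, Slc1a4, moved the other way, from 3.90 and 5.67 to 17.2 and 18.8 scaled CPM, and rose by 1.93 ± 0.23 (adjusted p = 0.00101).

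Glul, the glutamine synthetase itself, had 115 and 116 scaled CPM in undamaged R&Zflox livers and 58.2 and 21.2 at CD 4d, a log2 difference of -1.52 ± 0.45 that did not pass (edgeR adjusted p = 0.122). The CD 4d controls differed from each other in Glul by more than in Slc1a2 or Oat. Rhbg (0.64 ± 0.37), Lect2 (-0.38 ± 0.29), Tbx3 (-0.18 ± 0.32) and Rgn (-0.44 ± 0.27) did not pass either. Of the 9, 3 were thus called lower, 1 was called higher and 5 were not called. Among 15 other pericentral genes, 3 were called lower and none higher in the same comparison: Nr1i3, the xenobiotic receptor CAR (-2.79), Cyp2e1, the cytochrome P450 that activates CCl4 (-2.11), and Avpr1a, a vasopressin receptor (-1.42). Not 1 of the 12 periportal genes was called, and neither was any of the 16 tested genes of glutamine and glutamate handling.

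**Figure D2:**
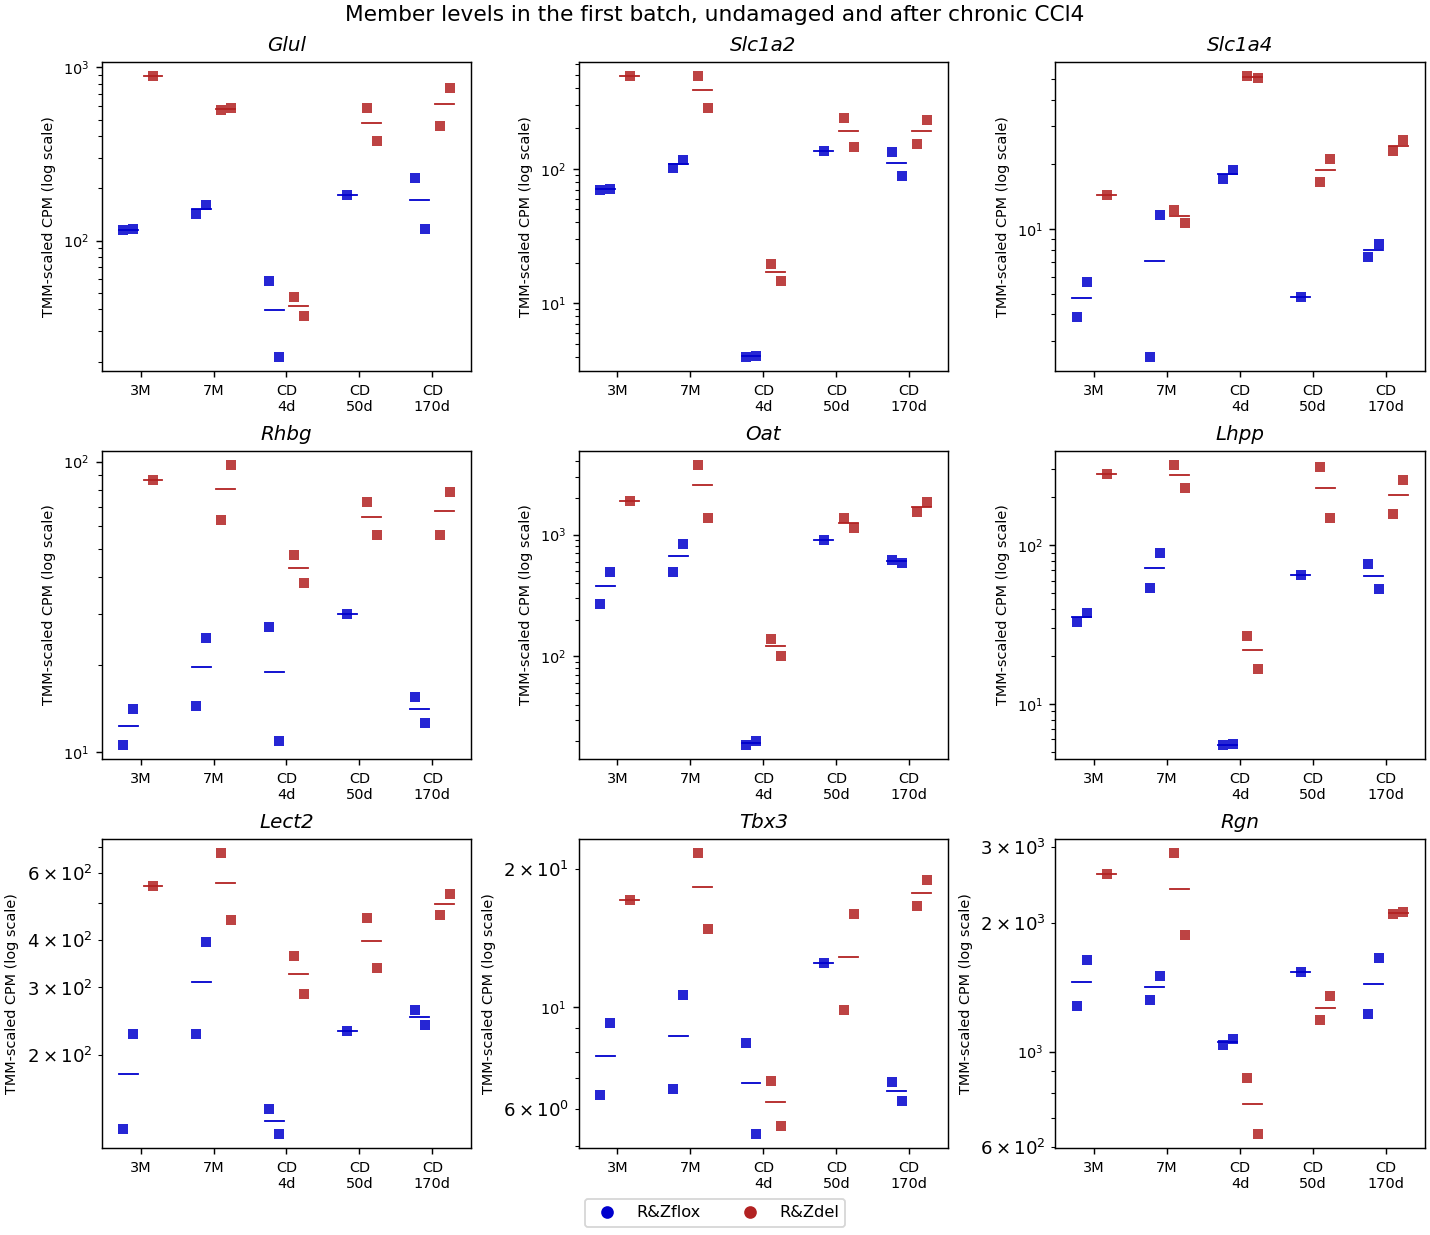
Levels of the 9 genes in every assigned first-batch library of R&Zflox (blue) and R&Zdel (red), as TMM-scaled CPM on log axes. Shown are the CD groups at 4, 50 and 170 days and livers without damage at 3M and 7M. Each point is a library and lines are group means. Slc1a2, Oat and Lhpp are low at 4 days in both genotypes and Slc1a4 is high, and Glul of both genotypes overlaps at 4 days.

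R&Zdel livers at CD 4d held more Oat, Slc1a2 and Lhpp than these controls. Oat had 139 and 101 scaled CPM in R&Zdel and 18.5 and 20.2 in R&Zflox, a log2 fold change of 2.72 ± 0.24. Slc1a2 had 19.7 and 14.7 against 3.98 and 4.07 (2.17 ± 0.33), and Lhpp 27.03 and 16.7 against 5.50 and 5.62 (2.05 ± 0.40). Slc1a4 had 51.4 and 50.6 against 17.2 and 18.8 (1.59 ± 0.19), Lect2 363 and 289 against 144 and 124 (1.36 ± 0.21), and Rhbg 47.9 and 38.1 against 26.9 and 10.9 (1.27 ± 0.36). These 6 genes were called, beside 15.2% of the 11358 genes tested. With the libraries of conflicting labels placed by their characteristics, 3 of the 9 were called. The same 6 were those for which both R&Zdel libraries lay above both R&Zflox libraries after scaling, beside 32% of all genes.

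Glul of the genotypes overlapped at CD 4d. R&Zdel livers had 47.3 and 36.7 scaled CPM, between the R&Zflox livers at 58.2 and 21.2, with a fold change of 0.17 ± 0.48 on the log2 scale. This value turned on single controls, at 1.04 without R&Zflox replicate 1 and -0.39 without replicate 2. In plain CPM the R&Zdel libraries of Glul lay above both controls, so the overlap depends on the scaling. Undamaged R&Zdel livers of the first batch at 7M had 569 and 581 scaled CPM of Glul, so the damaged mutants were low against these undamaged mutants, a difference that was not tested. The 7M livers were also taken later after deletion than the CD 4d livers. Tbx3, at 6.92 and 5.50 scaled CPM against 8.36 and 5.30 (-0.06 ± 0.30), and Rgn, at 865 and 642 against 1036 and 1070 (-0.40 ± 0.24), did not stand higher in R&Zdel either. For Rgn the scaled levels of the genotypes did not overlap and R&Zflox was the higher.

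From CD 4d to CD 170d Oat, Slc1a2 and Lhpp rose in both genotypes. The R&Zflox part rests on the titles of both CD 170d controls, which the study's list gives at 50 days. Calls and adjusted p-values are read as a description here too. In R&Zflox livers 5 of the 9 were called, beside 4.3% of all genes: Oat rose by 4.95 ± 0.27 on the log2 scale (edgeR adjusted p = 0.000115), Slc1a2 by 4.78 ± 0.36 (adjusted p = 0.000575), Lhpp by 3.52 ± 0.42 (adjusted p = 0.00389) and Glul by 2.11 ± 0.50 (adjusted p = 0.0621), and Slc1a4 fell by 1.19 ± 0.19 (adjusted p = 0.0155). Without R&Zflox CD 4d replicate 2, only 3 of the 9 were called. The other 4 genes differed by -0.43 to 0.89 in R&Zflox. In R&Zdel livers 7 were called, beside 22% of all genes. Glul rose by 3.76 ± 0.54 (edgeR adjusted p = 0.00283), Oat by 3.71 ± 0.25 (adjusted p = 0.000465), Slc1a2 by 3.37 ± 0.33 (adjusted p = 0.00116) and Lhpp by 3.14 ± 0.40 (adjusted p = 0.00208). Tbx3 and Rgn, which had not differed between the genotypes at CD 4d by a call, rose in R&Zdel by 1.41 ± 0.30 and 1.37 ± 0.25 (adjusted p = 0.0106 and 0.00577), and Slc1a4 fell by 1.17 ± 0.19 (adjusted p = 0.00376). Rhbg and Lect2 differed by 0.54 ± 0.36 and 0.50 ± 0.21 and were not called.

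**Figure D3:**
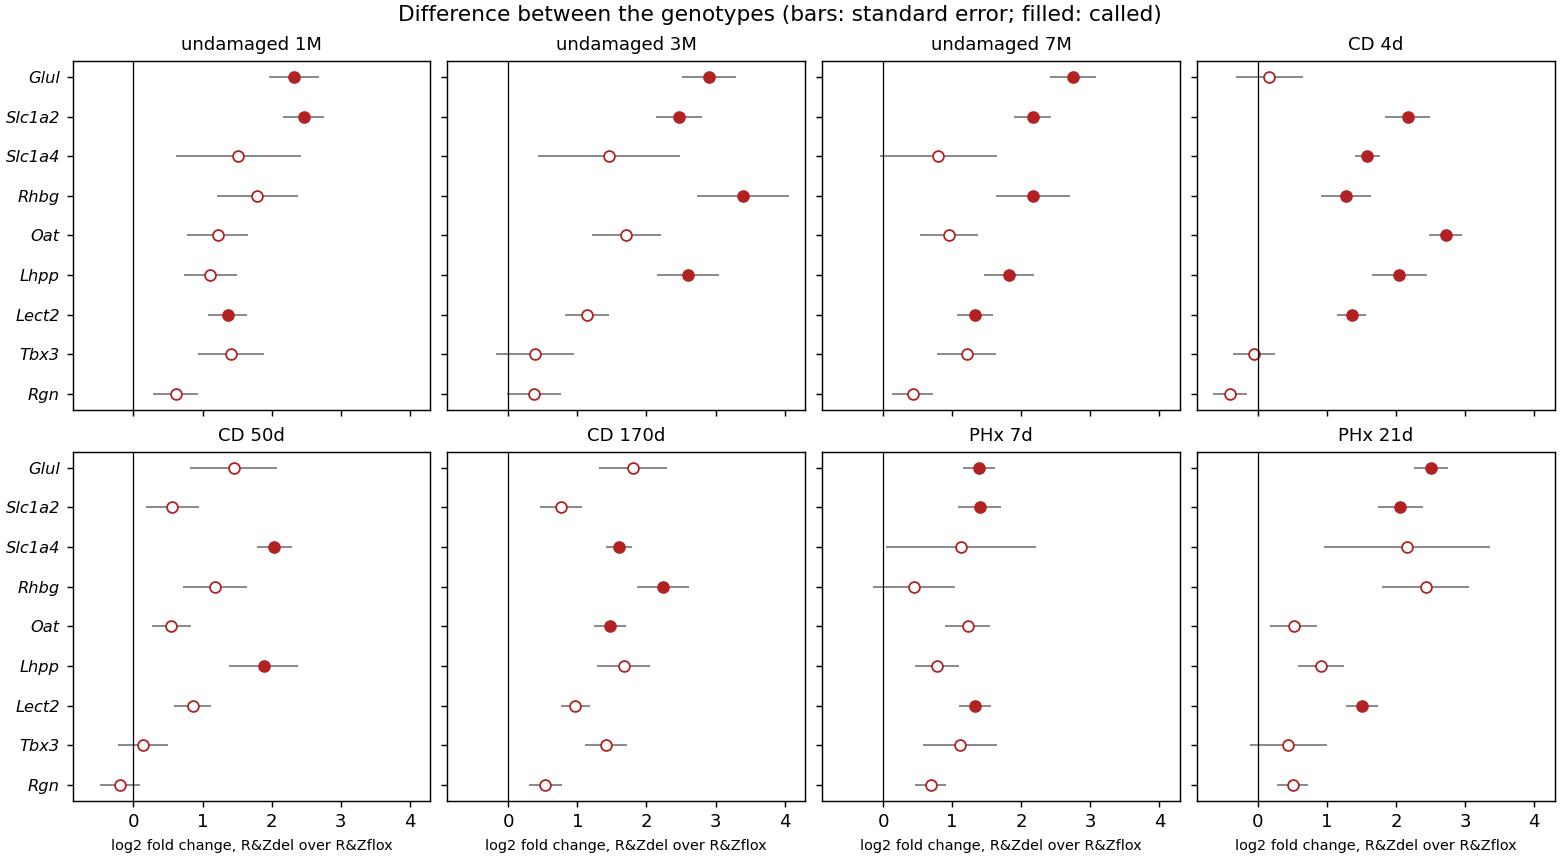
Fitted log2 fold change of R&Zdel over R&Zflox for the 9 genes in the 8 conditions, with standard errors as bars and filled points for genes called by the fit across all genes, which is no evidence, since the genes were chosen with these values known. Glul stands above 2 in undamaged livers, near 0 at CD 4d and at 1.81 at CD 170d, while Oat is highest at CD 4d with 2.72.

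The genotype gap moved in opposite directions for different genes between CD 4d and CD 170d. By the test of that difference 2 of the 9 genes were called, beside 6.92% of all genes: the gap of Oat narrowed by 1.24 ± 0.32 on the log2 scale (edgeR adjusted p = 0.0728) and that of Tbx3 widened by 1.47 ± 0.42 (adjusted p = 0.0934). The gap of Glul was 1.64 ± 0.69 wider (adjusted p = 0.197) and that of Slc1a2 changed by -1.40 ± 0.44 (adjusted p = 0.112), neither of them called. The other 5 genes differed by -0.39 to 0.97. With 2 livers a group these calls were fragile, since leaving out any of 7 of the 8 libraries left none of the 9 called. Without R&Zflox CD 170d replicate 2, 3 genes were called. The gaps are made of genotype values known when the genes were chosen, so these calls are read as a description.

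At CD 50d the 2 R&Zdel livers were set against a single R&Zflox liver, so this difference has no replicate check on the control side. Glul had 584 and 376 scaled CPM against 184, Lhpp 311 and 149 against 65.2, and Slc1a4 16.5 and 21.1 against 4.84. Oat had 1370 and 1127 against 899 (0.55 ± 0.28), and Slc1a2 240 and 145 against 137 (0.57 ± 0.38). The fold changes were 1.45 ± 0.63 for Glul, 1.18 ± 0.46 for Rhbg, 0.86 ± 0.26 for Lect2, 0.14 ± 0.36 for Tbx3 and -0.19 ± 0.29 for Rgn. Cholangiocyte markers summed to 578 to 1131 CPM in R&Zdel and 99.3 CPM in R&Zflox at that time, and 5 markers of stellate cells and fibroblasts to 311 to 506 CPM against 197 CPM. Their part in the difference was not tested. Of the 9 genes 2, Slc1a4 (2.04 ± 0.26) and Lhpp (1.89 ± 0.50), were called, beside 5.58% of all genes. Only 1 was called without R&Zdel CD 50d replicate 1. With the libraries of conflicting labels placed by their characteristics, none was called and the median log2 fold change of the 9 turned from 0.86 to -0.16.

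At CD 170d all 9 genes stood higher in both R&Zdel livers than in both R&Zflox livers on the scaled levels, beside 20.4% of all genes. This count follows from how the genes were chosen, and nothing is read from it. It also rests on the titles of the R&Zflox livers, as given above. Glul had 458 and 766 scaled CPM against 228 and 116 (1.81 ± 0.49), Rhbg 56.1 and 78.8 against 15.5 and 12.6 (2.24 ± 0.38), and Oat 1525 and 1860 against 622 and 581 (1.48 ± 0.23). Slc1a2 had 153 and 230 against 134 and 88.3, the smallest gap of the 9 but 1, at 0.76 ± 0.30. Rhbg, Slc1a4 and Oat were called, beside 0.625% of all genes, but none was called without R&Zdel CD 170d replicate 2 and only 1 without R&Zflox CD 170d replicate 1. Cholangiocyte markers summed to 244 to 293 CPM in R&Zdel and 56.0 to 244 CPM in R&Zflox at that time, and hepatocyte markers to 64768 to 67581 CPM against 78970 to 116286 CPM.

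Set against undamaged 7M livers of the first batch, CD 170d livers gave 0 called genes out of 11182 in R&Zflox, in R&Zdel and for the difference between them, with 599, 734 and 308 genes at an unadjusted p under 0.05. DESeq2 called 39, 76 and 5 genes. Within each genotype, Slc1a4 had the largest of these differences among the 9 genes. It stood 1.64 ± 0.30 higher on the log2 scale in R&Zflox livers at CD 170d (edgeR adjusted p = 0.531). In R&Zdel livers at CD 170d it stood 1.08 ± 0.22 higher (edgeR adjusted p = 0.432). The only female control of this comparison sets the sex term of the model, so the R&Zflox value rests on 7M replicate 1, at 2.54 scaled CPM of Slc1a4, while the female had 11.6 and the CD 170d controls 7.44 and 8.50. Slc1a2 of R&Zdel stood at 153 and 230 scaled CPM at CD 170d and at 488 and 284 without damage, a difference of -1.02 ± 0.33 (adjusted p = 0.603). The other 8 genes differed by -0.04 to 0.29 in R&Zflox and the other 7 by -0.62 to 0.08 in R&Zdel.

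Per kilobase of exon the 9 genes spread over more than 2 orders of magnitude in R&Zflox livers. In undamaged 7M livers of the first batch the order was Rgn at 828 CPM per kilobase, Oat at 301, Lect2 at 253, Glul at 51.6, Lhpp at 42.6, Rhbg at 9.71, Slc1a2 at 7.85, Slc1a4 at 1.82 and Tbx3 at 1.62, as means of 2 livers. The ranges of Oat and Lect2 overlapped, as did those of Glul and Lhpp, of Rhbg and Slc1a2, and of Slc1a4 and Tbx3, so that 4 pairs of neighbours are not ordered by these livers. At CD 4d Slc1a2 was the lowest, at 0.286 CPM per kilobase, and Slc1a4, at 4.31, stood above Lhpp at 3.20 and Tbx3 at 1.24. Oat, at 8.45, was then within the ranges of Rhbg and of Glul, at a mean of 13.2, and is not ordered against either.

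**Figure D4:**
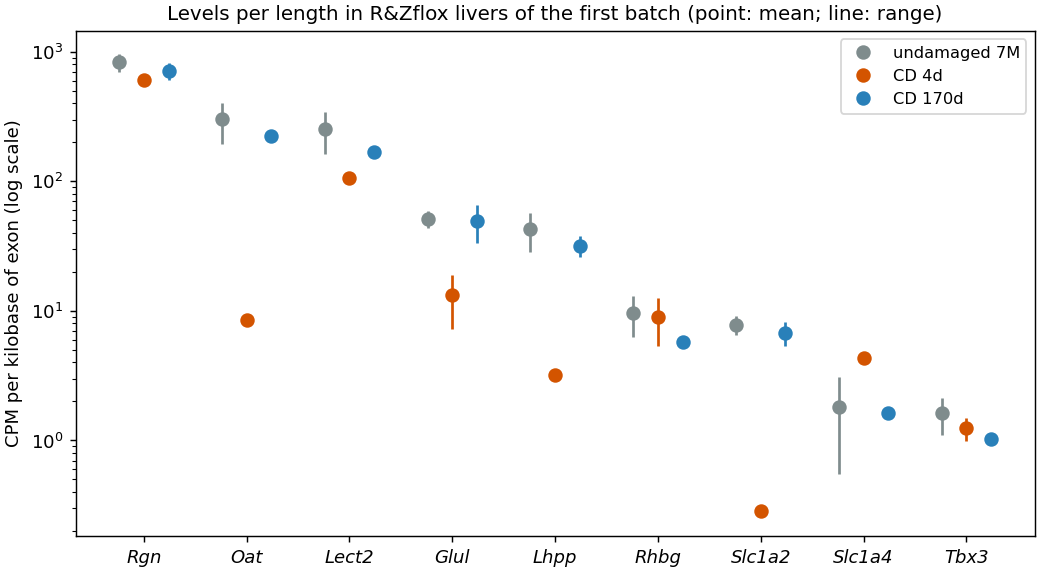
Plain CPM per kilobase of exon on a log axis for the 9 genes in R&Zflox livers of the first batch, undamaged at 7M (grey), at CD 4d (orange) and at CD 170d (blue). Points are means of 2 livers and lines run from the lower to the higher liver. Oat and Slc1a2 drop furthest at CD 4d, and Slc1a4 is the gene that stands higher there.

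After hepatectomy Glul and Slc1a2 again stood higher in R&Zdel. Glul had 376, 377 and 502.6 CPM in R&Zdel and 206, 157 and 84.2 CPM in R&Zflox at PHx 7d, and 1540, 976 and 1258 CPM against 171, 182 and 194 CPM at PHx 21d. Slc1a2 had 157, 121 and 304 CPM against 90.1, 67.9 and 46.3 CPM at PHx 7d, and 1155, 479 and 777 CPM against 164, 116 and 147 CPM at PHx 21d. For both genes the genotypes stayed apart at both times. The log2 fold changes were 1.39 ± 0.23 and 2.51 ± 0.24 for Glul and 1.40 ± 0.31 and 2.06 ± 0.33 for Slc1a2.

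Lect2 stood higher too, at 461, 378 and 513 CPM against 137, 235 and 132 CPM at PHx 7d (1.33 ± 0.23) and at 744, 516 and 557 CPM against 157, 166 and 186 CPM at PHx 21d (1.51 ± 0.23). Glul, Slc1a2 and Lect2 were the 3 genes called at each time, beside 0.274% of 12773 genes at PHx 7d and 0.329% at PHx 21d, and nothing is read from this. With the study's own rule after hepatectomy, an unadjusted p under 0.05, 4 of the 9 genes were called higher at each time, beside 1.67% and 3.05% of all genes. Every R&Zdel library lay above every R&Zflox library for 6 genes at each time, beside 7.36% and 8.06% of all genes.

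Rhbg had 6.97, 13.9 and 14.7 CPM against 5.68, 5.17 and 13.5 CPM at PHx 7d, which overlapped, and 37.4, 27.99 and 34.7 CPM against 7.37, 2.77 and 6.02 CPM at PHx 21d, which did not. Rgn had 1706, 1181 and 1575 CPM against 787, 887 and 920 CPM at PHx 7d and 1398, 1105 and 1275 CPM against 823, 807 and 727 CPM at PHx 21d, apart at both times with small fold changes of 0.69 ± 0.22 and 0.50 ± 0.23. Lhpp, with 88.9, 96.9 and 112 CPM against 63.8, 48.9 and 49.4 CPM at PHx 7d, was also apart (0.78 ± 0.32). Oat and Tbx3 overlapped at both times. Slc1a4 was at 72.2, 27.2 and 21.4 CPM against 0.0701, 26.7 and 0.852 CPM at PHx 21d, so that 1 control liver was level with the mutants and the error of its fold change, 2.16 ± 1.20, was wide.

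Against undamaged 1M livers of the same genotype, none of the 9 genes was called after hepatectomy, and very few genes were: 3 in R&Zflox at PHx 7d (0.0235%), 2 in R&Zdel at PHx 7d (0.0157%) and 0 at PHx 21d in both, with 885 and 627 genes at an unadjusted p under 0.05 in R&Zflox and R&Zdel at PHx 21d. DESeq2 called 171 and 305 genes in R&Zflox at PHx 7d and 21d, and 186 and 177 in R&Zdel, and 92, 131, 110 and 86 of these had a fitted log2 change beyond 10 in size. In R&Zdel livers at PHx 7d, Glul differed by -1.13 ± 0.23 on the log2 scale from 1M (edgeR adjusted p = 0.193) and Slc1a2 by -1.01 ± 0.31 (adjusted p = 0.878). In R&Zflox livers Glul differed by -0.19 ± 0.23, with an interval from -0.638 to 0.263. The largest difference of a control at PHx 21d was that of Slc1a2, at 1.20 ± 0.31 (edgeR adjusted p = 0.492), and all 9 genes of R&Zdel differed by -0.58 to 0.79 at that time. The gap between the genotypes was 0.94 ± 0.30 smaller for Glul at PHx 7d than at 1M and 1.08 ± 0.41 smaller for Slc1a2, each with an adjusted p of 1. For this difference, 0 genes were called at PHx 7d and 0 at PHx 21d by edgeR, with 607 and 736 at an unadjusted p under 0.05, while DESeq2 called 136 and 235, among them 108 and 159 beyond 10 in size. The hepatectomy comparisons share the 1M livers.

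Of 21 listed genes that also handle glutamine, glutamate and proline, few differed between the genotypes, and Gls2 was the one called most often. Gls2, the liver glutaminase, was lower in R&Zdel at 1M (-2.06), 7M (-1.30), CD 4d (-2.88), CD 50d (-1.79) and PHx 7d (-2.01), and at 1M it stood at 58.4 to 127 CPM in R&Zdel and 321 to 478 CPM in R&Zflox. It was not called at 3M (-1.48), CD 170d (-0.97) or PHx 21d (-1.41). Prodh, proline dehydrogenase, was called higher at 7M (1.30), PHx 7d (1.03) and PHx 21d (1.46). Slc1a5, a glutamine transporter, was called higher at CD 4d (3.24), and at PHx 21d, where it was listed at 0 in all 3 R&Zflox livers and at 32.5 to 42.8 CPM in R&Zdel. Out of 18 genes tested, 0 were higher and 1 lower at 1M, none was called at 3M and 1 was higher and 1 lower at 7M, and the list medians of 0.15, 0.12 and 0.16 lay close to those of all genes. At CD 4d, where 15.2% of all genes were called, 1 of 17 was higher and 3 were lower, with Got1 (-1.44), an aspartate aminotransferase, and Slc38a3 (-1.26), a glutamine transporter, joining Gls2. Between CD 4d and CD 170d in R&Zdel, 7 of 17 rose and 6 fell, beside 22% of all genes called, among them Asns (-3.11), asparagine synthetase.

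Other genes of the pericentral zone that were called between the genotypes all stood higher in R&Zdel. Of 15, 5 were called higher and none lower at 1M, 4 and none at 3M, and 5 and none at 7M, beside 0.436%, 0.226% and 0.451% of all genes called, among them Cyp2a5 (2.29 at 1M), Gulo (1.58), an enzyme of vitamin C synthesis, and Cyp2e1 (1.05). At CD 4d 8 were higher and none lower, where 15.2% of all genes were called. None was called at CD 50d, beside 5.58%, and Lgr5 (2.13) and Gulo (1.29) were higher at CD 170d, beside 0.625%. Cyp2e1 did not stand higher in R&Zdel at CD 4d (-0.07 ± 0.31), as Glul did not. Of 12 periportal genes none was called higher in any of the 8 genotype comparisons, and 6 were lower at 1M, 3 at 3M, 4 at 7M, 7 at CD 4d, 7 at CD 50d, none at CD 170d, 7 at PHx 7d and 6 at PHx 21d, the last 2 beside 0.274% and 0.329% of all genes called. Cyp2f2, a cytochrome P450 of periportal cells, was the most reduced at 1M (-3.67) and at CD 4d (-7.27). The lists were written from general knowledge with earlier results of these data known, so their direction is a description.

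Over the 48 assigned libraries, with log2 CPM centred within each batch, the gene whose level ran closest to Glul among 9919 genes was Slc1a2 (Pearson r = 0.913). Lhpp ranked 3 (0.863) and Lect2 5 (0.835), while Oat ranked 28 (0.727), Tbx3 37 (0.711) and Rhbg 48 (0.675). Rgn (0.403) and Slc1a4 (0.305) ranked 582 and 1160. The closest genes outside the 9 were Prodh (0.898), Gulo (0.844), Slc16a10 (0.832) and Ang (0.827). Among the 9, Slc1a2 and Lhpp (0.915) and the neighbours Oat and Lhpp (0.886) ran closest, and Slc1a4 and Rgn (0.044) furthest but for Rhbg and Rgn (0.036). All points share the genotype and damage groups, in which the genes differ by choice, so these values describe the libraries and carry no p.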

How the data were processed

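Whole-liver RNA was read by the authors as Smart-Seq2 libraries. According to their processing notes, reads were trimmed (Trim Galore), aligned to mm10 with STAR 2.5.0a and assigned to genes with featureCounts 1.5.0-p1 or 1.5.0-p3 without strand. The study's supplementary methods name the same aligner, but Sickle for read filtering and another version of featureCounts. The deposited values are raw counts of reads per gene, in 2 batches, and the 34490 symbols of both batches were used. Total counts per library, 11721687 to 38692089, set the precision.

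CPM were computed on plain totals, and TMM-scaled CPM within each batch. Fits used R 4.3.3, edgeR 4.0.16 (quasi-likelihood, TMM, two-sided, Benjamini-Hochberg adjustment) and limma 3.58.1, with DESeq2 1.42.0 as an alternative, after a filter at a CPM of 1 (in at least 3 libraries without damage or after hepatectomy, and in 50% of libraries in the damage fits). Undamaged livers were fitted with sex and batch terms, CD livers by group, damaged against undamaged livers of the first batch with a sex term, and hepatectomy with 1M livers and a sex term. Scripts were tested on simulated data. Groups came from the sample labels, and sex, induction and batch from the study's sample list. The study speaks of its RNA samples as mice, and calls each column of a heatmap an independent replicate. Beyond this and the labels, no source ties libraries to separate animals, so p-values measure the spread between these samples. The 5 unassigned libraries entered none of the main comparisons, and 2 samples were not analysed here. R&Zdel 3M replicate 4, R&Zflox 7M replicate 5 and both R&Zflox CD 170d livers were kept, although the sources disagree on them too. All 9 genes were to be named in every comparison, and in some are given together as a range, and from each list at most the 4 called genes of largest change, except for some values not reported here. The 9 genes and the lists were chosen with earlier results of these data known. Alternatives were DESeq2 size factors, no filter, a likelihood ratio test, DESeq2, a replicate block, males alone, single batches, other placements of libraries and leaving out each library. Replicate numbers shared by the genotypes do not pair samples by any label.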

Additional observations from a re-analysis of the deposited data

Results flagged for a closer look

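Of 45 sets of 4 or 5 libraries, each a gene in a group, 3 held a library far from the others by Dixon's criterion, which chance gives in about 1 of 20. Glul stood at 199.3 CPM in R&Zflox 3M replicate 5, above the 77.2 to 105 CPM of the other 4 controls and under every R&Zdel liver. Slc1a4 stood at 26 CPM in R&Zdel 7M replicate 5, against 4.55 to 10.5 CPM in the others. Lect2 stood at 409.9 CPM in R&Zflox 7M replicate 5, against 128 to 195 CPM in the others, and this liver was the only female of its group and was placed by its characteristics against its title.

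The genotype difference changed between CD 4d and CD 170d by edgeR's quasi-likelihood test for 2 of the 9 genes, beside 6.92% of all genes. For Oat it changed by -1.241 on the log2 scale (adjusted p = 0.0728), from 2.72 at CD 4d to 1.48 at CD 170d. For Tbx3 it changed by 1.47 (adjusted p = 0.0934), from -0.06 to 1.41. Both calls rested on 2 livers a group, and neither gene was called when any of 7 of the 8 libraries was left out, or with the libraries of conflicting labels placed by their characteristics. Both also draw on genotype values known when the genes were chosen.

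Among the 5 libraries of the first batch that entered no comparison because their labels conflict, Glul was above every R&Zflox library of that batch in 3. It stood at 987.2 CPM in i704-i502, 661.6 CPM in i705-i503 and 770.5 CPM in i707.i517, and at 126 CPM in i701-i503 and 158 CPM in i711-i503. No group was drawn from these values.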

How the results depend on the processing

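Counts in this paragraph are of the 9 genes called. With males only, 1 was called at 1M and 3 at 7M. With the compared groups alone, 0 were called at 3M and 3 at 7M. At 7M, 3 were called with no sex and no batch term and 3 in the second batch alone, and 0 in the first batch alone, where fewer libraries were fitted and the median log2 fold change was 1.985. With libraries of conflicting labels placed by their characteristics, 3 were called at CD 4d, 0 at CD 50d with a median of -0.16, 0 at CD 170d with a median of 1.178, 3 for R&Zflox CD 170d against CD 4d and 0 for the difference of the gaps between these times. With the R&Zflox CD 50d libraries of the study's list, 4 were called at CD 50d. That list leaves no assigned control at CD 170d, so no value at CD 170d can be given under it. Without a filter, 4 were called at CD 50d, 6 at CD 170d, 5 for the difference of the gaps, 1 and 2 for CD 170d against 7M in R&Zflox and R&Zdel, 1 for R&Zflox PHx 21d and 1 for R&Zdel PHx 7d against 1M. The likelihood ratio test called 6 at CD 170d, 1 and 1 for CD 170d against 7M in R&Zflox and R&Zdel, and 1 for R&Zdel PHx 7d. DESeq2 called 4 at CD 50d, 6 at CD 170d, 4 for the difference of the gaps, 1 and 1 for CD 170d against 7M, 1 for R&Zflox PHx 21d and 1 for R&Zdel PHx 7d. The cause of these changes was not tested. With the replicate block, 3 were called at 7M, 0 at CD 50d and 0 at CD 170d, and 3, 6, 2 and 3 at 1M, CD 4d, PHx 7d and PHx 21d. No label pairs the samples by these numbers. The deviations of 18 same-numbered pairs correlated at -0.27 to 0.344, with 4 above 0.1, but this cannot settle whether samples were paired. With 2 livers a group both pairs give the same value, and at 7M the deviations were taken across both batches.

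Leaving out each library in turn, the 9 gave 2 to 3 calls at 1M, 0 to 4 at 3M, 4 to 5 at 7M, 5 to 6 at CD 4d, 1 to 3 at CD 50d, 0 to 3 at CD 170d, 2 to 4 at PHx 7d and 3 to 4 at PHx 21d. R&Zflox CD 170d against CD 4d gave 3 to 5, R&Zdel 7 and 7, the difference of these gaps 0 to 3, and R&Zflox CD 4d against 3M 4 to 5. For the difference of the gap between CD 170d and 7M it was 0 to 1, where Slc1a4 ranged from -0.676 to 1.652 and turned its direction without R&Zflox 7M replicate 1, since the female control then sets the level. Leaving out the single R&Zflox CD 50d library could not be fitted. Over values of single genes, 3121 were unchanged, 225 moved, 24 newly passed the threshold, 22 no longer passed it and 1 turned. For genotype differences, unchanged means a shift smaller than the spread within groups, whether or not the call held. In the other comparisons it means the same side of the threshold, and the 24 and 22 come from these alone. Values that changed sign without a call count as moved. Over all genes DESeq2 called 297 against 56 at 1M, 132 against 29 at 3M, 92 against 58 at 7M, 1044 against 634 at CD 50d, 291 against 71 at CD 170d, 564 against 285 for R&Zflox CD 4d against 3M, 209 against 35 at PHx 7d, 421 against 42 at PHx 21d and 312 against 118 between the sexes. Without a filter CD 4d gave 2956 against 1729, and fitted with its own groups alone, an alternative chosen after seeing the data, 2623. The effect of depth was not tested. Slc1a2 had 110 and 116 counts in the CD 4d controls, and Slc1a4 and Rhbg fell under 1 CPM in some controls, down to 1 count, where a single value rests on few reads.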

Other observations

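In the 5 libraries left out of all comparisons, the other 8 genes also spread widely. Rhbg ranged from 22.1 to 152 CPM, Oat from 808 to 3373 CPM, Slc1a2 from 133 to 591 CPM and Lhpp from 72.4 to 407 CPM. Lect2 ranged from 275 to 664 CPM and Rgn from 1493 to 2726 CPM. In each of these 6 genes the 2 lowest values were those of i701-i503 and i711-i503. No group was assigned to any of them.

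Over the 25 undamaged libraries alone, Slc1a2 again had the level closest to Glul (Pearson r = 0.937), and by Spearman's rho over all 48 it was also the closest (0.934). Other ranks changed in the undamaged libraries. There Lect2 ranked 8, Lhpp 18, Rhbg 30, Tbx3 60, Oat 235, Slc1a4 508 and Rgn 3443. The closest genes from outside the set were then Gstm2 (0.928), Ccdc85b (0.908), Gstm1 (0.905), Gulo (0.893) and Prodh (0.888).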
